A study of Mus musculus with 24 samples.

Results

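The change in the response of astrocytes to 2 Gy of X-rays between 6 h and 24 h after exposure was measured across all genes. The 16 of 24 libraries with the dose 0 Gy or 2 Gy entered the comparison, chosen by their titles, with 4 libraries in each of the groups 0 Gy 6 h, 2 Gy 6 h, 0 Gy 24 h and 2 Gy 24 h, and 16866 of the 49315 listed genes had enough counts to be tested. All groups were primary astrocytes from the brain cortex of wild type C57BL/6J embryos (embryonic day E18.5), grown in culture to passage 1. The cells of all embryos of one pregnant mouse had been pooled, so a library stands for a pooled culture and not for an animal. The 0 Gy cells were mock-irradiated controls, and the 8 libraries of the dose 0.1 Gy entered only an alternative fit.

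X-rays break both strands of DNA, and cells answer with a checkpoint response in which the transcription factor p53 is stabilised. Its direct targets include *Cdkn1a*, whose product p21 stops cyclin-dependent kinases, and *Mdm2*, whose product marks p53 for degradation and so closes a feedback loop. Genes of DNA replication and mitosis are repressed when p21 keeps the pocket proteins and E2F factors in their repressing complexes.

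The interaction of dose and time was the log2 fold change of 2 Gy against 0 Gy at 24 h minus that at 6 h, so that a negative value is a response that was lower at 24 h than at 6 h. It was fitted with edgeR's quasi-likelihood test with each n number at each time point as a block, and a gene was called at a Benjamini-Hochberg adjusted p under 0.05. A gene called at 6 h and in the interaction, but not at 24 h, is named early only. A gene called at 24 h and in the interaction in the same direction, but not at 6 h, is named late only, and a gene called in the same direction at both times is named lasting. These names rest on thresholds: a late only gene may have had a smaller difference at 6 h that was not called.

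Total counts ran from 14742855 to 38194800 per library. The 12 astrocyte markers were all tested. Their median levels were 485 CPM (a gene's counts over the TMM-scaled library size) for *Gfap*, 538 CPM for *Aqp4* and 2.45 CPM for *S100b*. Of the neuron markers, *Rbfox3* stood at a median of 0.172 CPM, but *Map2* at 212, *Stmn2* at 208 and *Tubb3* at 60.8 CPM. Fibroblast and vessel markers had median sums of 4304 to 5488 CPM in the 4 groups, with *Acta2* at a median of 4314 CPM. Astrocyte markers had median sums of 3182 to 3565 CPM. Microglia markers summed to between 347 and 408 CPM in the 4 libraries of replicate 2 and to between 2029 and 3476 CPM in the other 12 libraries. The level of microglia RNA hence differed between replicate numbers, while the medians of the 4 groups lay between 2248 and 2824 CPM. The non-coding RNA *Gm42418*, which overlaps ribosomal RNA sequence, took 0.364% to 10.4% of the counts of a library. Its part in the results was not tested.

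At 6 h, 26 genes were higher after 2 Gy (0.154% of tested genes) and 2 were lower (0.0119%). At 24 h, 1192 genes were higher (7.07%) and 1028 were lower (6.1%). The interaction was called for 598 genes with a higher response at 24 h (3.55%) and for 545 with a lower one (3.23%). Of the called genes, 8 were early only, 955 were late only and 13 were lasting, while 2 genes changed direction between the times. The median standard error of a log2 fold change was 0.13 at either time.

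**Figure D1:**
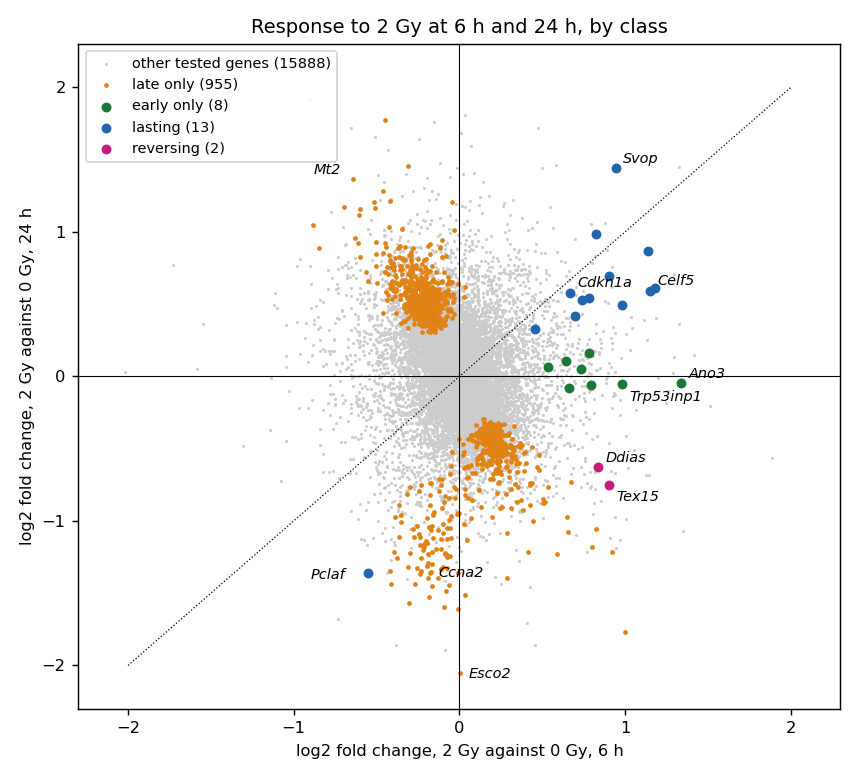
Log2 fold change of 2 Gy against 0 Gy at 6 h (x axis) and at 24 h (y axis) for each tested gene, 1 point a gene, with the 4 classes in colour and 1 gene outside the axes. The 8 early only genes lie to the right near the horizontal zero line, and the dotted line marks equal change at both times. The late only genes lie above and below. Those that rose lie mostly left of the vertical zero line (522 of 524, median -0.22 at 6 h), and those that fell had a median of 0.18 at 6 h. The choice of late only genes by the interaction favours 6 h values opposite in sign to those at 24 h.

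The numbers of called genes depended on single replicate numbers. Without all libraries of replicate 1, 2, 3 or 4, the same test called 0, 0, 3951 and 138 genes in the interaction, with 3994 and 2745 genes at an unadjusted p under 0.05 in the first and second of these fits. Without the replicate block the test called 0 interactions, 0 genes at 6 h and 69 at 24 h, with 827 interactions at an unadjusted p under 0.05, and with a block shared by both times it called 0, 0 and 177, with 2220 interactions at that p. The balance of directions at 24 h went with these counts. It was 0 higher and 69 lower without the block, 19 and 158 with the shared block, 20 and 144 without replicate 1 and 10 and 107 without replicate 2, and at an adjusted p under 0.01 it was 62 and 183. The interaction also moved with the base composition of the transcripts. Across 16821 genes the log2 fold change correlated with GC content at r = -0.35 at 6 h, 0.55 at 24 h and 0.59 for the interaction, given here as a description because genes share their libraries. After correcting for transcript GC content and length, 151 genes had a higher response at 24 h (0.895% of tested genes) and 124 a lower one (0.735%), and 13 genes were early only, 228 late only and 34 lasting. At 6 h the corrected fit called 83 genes higher (0.492%) and 20 lower (0.119%), and at 24 h 532 higher (3.15%) and 495 lower (2.93%). Corrected values are given below beside the main ones for many of the named genes.

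**Figure D2:**
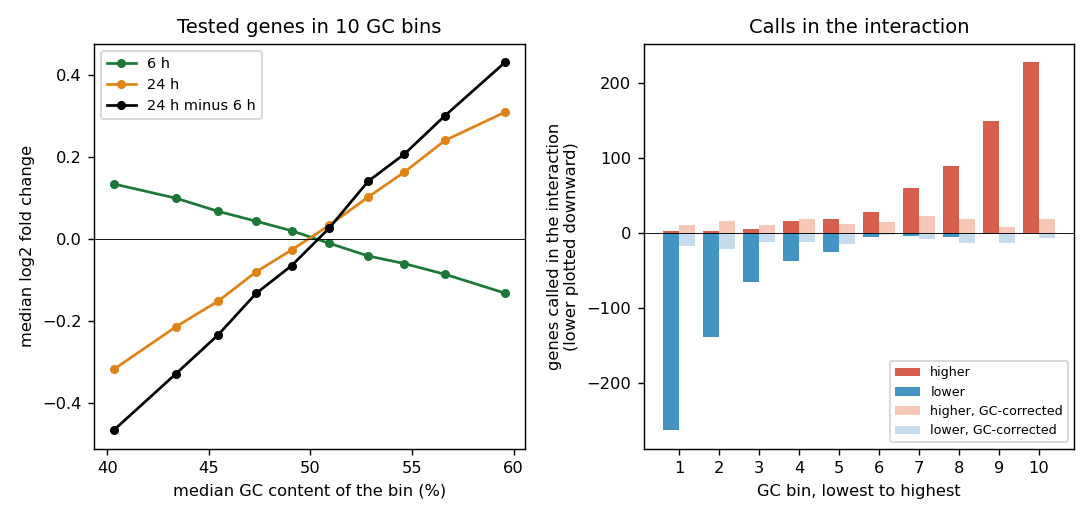
Left, the median log2 fold change of the genes in 10 bins of GC content (1661 to 1703 genes each) at 6 h, at 24 h and for their difference, and right, the genes of each bin called in the interaction before and after the GC correction. The median interaction ran from -0.47 in the lowest bin to 0.43 in the highest, and the lowest bin held 263 of the genes called lower before the correction and 18 after it.

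All 8 early only genes were higher at 6 h. They were *Ano3*, *Trp53inp1*, *9230114K14Rik*, *Pmaip1*, *Ccng1*, *Mdm2*, *Slc19a2* and *Fam214a*, with log2 fold changes from 0.54 to 1.34 at 6 h and from -0.08 to 0.16 at 24 h. In each of the 8, the 4 paired log2 ratios at 24 h all lay below the 4 at 6 h. Ratios without overlap in either direction occurred in 21.3% of all tested genes. The 8 genes were chosen by the interaction, which rests on the same pairs, so the lack of overlap restates their selection. Under the GC correction *Ano3*, *9230114K14Rik* and *Mdm2* stayed early only, *Ccng1* was lasting, and the other 4 were called at 6 h with an interaction that was not called.

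*Ano3*, a member of the anoctamin family of membrane proteins (chr2:110655201-110950923, minus strand, mm10), had the largest fold change of the 28 genes called at 6 h. The 0 Gy libraries held 10.1, 26.6, 11.9 and 10.02 CPM at 6 h (replicates 1 to 4, as in all lists below), and the 2 Gy libraries held 27.3, 49.6, 26.2 and 38.9 CPM. At 24 h the 0 Gy libraries held 48.8, 59.1, 19.3 and 43.6 CPM and the 2 Gy libraries 42.5, 54.2, 17.9 and 51.5 CPM. Every pair was higher at 6 h, the log2 ratios at 24 h lay between -0.20 and 0.24, and for each number the 0 Gy level was higher at 24 h than at 6 h. A number was not taken to mark the same culture at both times. The log2 fold change was 1.34 ± 0.14 (SE, adjusted p = 0.00545) at 6 h and -0.05 ± 0.14 (SE, adjusted p = 0.841) at 24 h by edgeR's quasi-likelihood test. The interaction was -1.38 ± 0.20 (SE, adjusted p = 0.0150), and -0.89 with the GC correction (adjusted p = 0.0171). *Ano3* overlaps *Muc15* on the other strand, and the use of strand in the counting was not given in the sources used here.

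*Mdm2*, the ubiquitin ligase of p53 (chr10:117688888-117710758, minus strand), stood at 151, 218, 138 and 115 CPM in the 0 Gy 6 h libraries and at 229, 300, 212 and 228 CPM in the 2 Gy 6 h libraries. At 24 h the values were 203, 304, 167 and 190 CPM at 0 Gy and 223, 273, 118 and 216 CPM at 2 Gy. All 4 pairs were higher at 6 h, whereas at 24 h 2 pairs were higher and 2 lower. Its interaction was -0.75 ± 0.16 (SE, adjusted p = 0.0383) by edgeR's quasi-likelihood test and -0.59 with the GC correction (adjusted p = 0.0473).

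*Ccng1*, which encodes cyclin G1, and *Trp53inp1*, which encodes a nuclear protein induced by p53, followed the same course. The *Ccng1* log2 ratios were 0.55, 0.65, 0.54 and 1.19 at 6 h and -0.03, -0.16, 0.23 and 0.17 at 24 h. Those of *Trp53inp1* were 0.75, 0.78, 0.86 and 1.55 at 6 h and 0.29, -0.37, -0.34 and 0.19 at 24 h. The control level differed between the times. *Trp53inp1* in the 0 Gy libraries was at 67.7, 130, 63.8 and 54.4 CPM at 6 h and at 228, 355, 92.1 and 183 CPM at 24 h. For every number the 24 h control was thus above the 6 h control, which held for 3 of 4 numbers in *Ccng1*. The 2 Gy libraries at 24 h held 279, 276, 72.9 and 209 CPM against 114, 223, 116 and 160 CPM at 6 h. Replicate 3 alone had a lower *Trp53inp1* level after 2 Gy at 24 h than after 2 Gy at 6 h. The interaction was -0.68 ± 0.16 for *Ccng1* (SE, edgeR adjusted p = 0.0402) and -0.24 with the GC correction (adjusted p = 0.188). For *Trp53inp1* it was -1.04 ± 0.20 (SE, edgeR adjusted p = 0.0335) and -0.50 with the correction (adjusted p = 0.0725).

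*Pmaip1*, which encodes the pro-apoptotic protein Noxa, had similar control levels at both times. The 0 Gy libraries held 39.1, 102, 32.5 and 26.6 CPM at 6 h and 34.7, 98.6, 26.3 and 26.7 CPM at 24 h, with replicate 2 far above the other 3 at both times. After 2 Gy they held 78.3, 144, 53.9 and 50.6 CPM at 6 h and 44.9, 109, 23.5 and 32.4 CPM at 24 h. For each number the 2 Gy level was lower at 24 h than at 6 h. The interaction was -0.63 ± 0.15 (SE, adjusted p = 0.0405) by edgeR's quasi-likelihood test and -0.31 with the GC correction (adjusted p = 0.295). The thiamine transporter gene *Slc19a2*, *Fam214a* and the long non-coding RNA *9230114K14Rik* had interactions of -0.53, -0.47 and -0.85 on the log2 scale. *9230114K14Rik* overlaps *C130083M11Rik* on the other strand.

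The lasting class held 12 genes that were higher at both times and 1 that was lower. Over the 12 higher genes the median was 0.86 at 6 h and 0.59 at 24 h on the log2 scale, and none was called in the interaction. *Cdkn1a*, which encodes p21 (chr17:29090979-29100722, plus strand), stood at 344, 550, 277 and 296 CPM at 0 Gy and 607, 716, 525 and 433 CPM at 2 Gy at 6 h. At 24 h it stood at 268, 352, 376 and 275 CPM at 0 Gy and 408, 563, 524 and 403 CPM at 2 Gy. At 24 h the 0 Gy and 2 Gy values of *Cdkn1a* did not overlap, and at 6 h replicate 2 at 0 Gy lay within the range of the 2 Gy libraries. The log2 fold change was 0.67 ± 0.10 (SE, adjusted p = 0.0284) at 6 h and 0.58 ± 0.10 (SE, adjusted p = 0.00449) at 24 h by edgeR's quasi-likelihood test. The interaction of -0.09 ± 0.14 (SE, adjusted p = 0.683) does not show that the response was equal at both times. The corrected values were 0.73 at 6 h and 0.40 at 24 h, both still called, with an interaction of -0.33 (adjusted p = 0.113).

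The 250 bases before the RefSeq start of *Cdkn1a* hold 1 stretch with the letters of the p53 consensus, 2 runs of 10 bases with a spacer of 12 bases, and it is shown because *Cdkn1a* is the best known target in the lasting class. It lies at chr17:29090906-29090937 on the plus strand (GRCm38.p6, RefSeq), with the 2 runs in capitals.
Cdkn1a: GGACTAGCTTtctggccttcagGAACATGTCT
Such a match with a spacer of up to 13 bases occurred before the start of 7 of 12056 tested genes with a promoter entry, and of 1 of the 19 such genes called higher at 6 h. The p53 binding sites of many targets lie outside this window, and the match is a description of letters.

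*Svop*, which encodes a synaptic vesicle protein, had the largest 24 h fold change of the lasting genes. It stood at 15.2, 27.6, 13.8 and 13.9 CPM at 0 Gy and 47.2, 64.6, 36.9 and 39.3 CPM at 2 Gy at 24 h. At 6 h the values were 10.8, 28.2, 4.70 and 7.79 CPM and 22.2, 39.3, 14.4 and 13.3 CPM. Every pair was higher at both times, and replicate 2 had the highest level in each group. *Svop* overlaps *Usp30* on the other strand. Its log2 fold change was 0.95 ± 0.15 (SE, adjusted p = 0.0284) at 6 h and 1.44 ± 0.14 (SE, adjusted p = 1.56e-04) at 24 h by edgeR's quasi-likelihood test, with an interaction of 0.49 ± 0.20 (SE, adjusted p = 0.124). Corrected for GC content, it was called at both times with an interaction of 0.22 (adjusted p = 0.522).

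The other 10 lasting genes that rose were *Celf5*, an RNA-binding protein gene, *Dcxr*, which encodes a reductase of dicarbonyls and xylulose, *Pidd1*, which encodes a death domain protein induced by p53, and *Ei24*, *Ppp2r2c*, *1700007K13Rik*, *Klhdc7a*, *Kank3*, *Trim7* and *Inka2*. *Celf5* had log2 ratios of 1.30, 0.61, 1.63 and 1.18 at 6 h and 0.77, 0.64, 0.54 and 0.42 at 24 h. Its interaction was -0.56 ± 0.19 (SE, adjusted p = 0.0798 by edgeR's quasi-likelihood test), and with the GC correction it was -0.76 (adjusted p = 0.0446), so that it was lasting with a smaller value at 24 h. *Dcxr* had log2 ratios of 1.11, 0.54, 1.27 and 0.39 at 6 h and 0.82, 0.91, 1.27 and 0.93 at 24 h, so that its ratios overlapped between the times, and its interaction was 0.16, or -0.38 with the correction, called in neither fit. *Ppp2r2c*, *Pidd1* and *Kank3* were not called at 24 h under the correction. *Kank3* overlaps *Rps28* on the other strand, and *Trim7* overlaps *Gm12184* and *Gm16170*.

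*Pclaf*, which encodes a factor that binds the replication clamp PCNA, was the only lasting gene that fell, and its fall grew. The 0 Gy libraries held 30.7, 38.1, 37.3 and 34.5 CPM at 6 h and 25.9, 35.7, 34.5 and 29.6 CPM at 24 h. The 2 Gy libraries held 22.8, 27.2, 24.3 and 21.7 CPM at 6 h and 10.4, 11.2, 13.9 and 13.3 CPM at 24 h. The doses did not overlap at either time. The log2 fold change was -0.55 ± 0.10 (SE, adjusted p = 0.0492) at 6 h and -1.36 ± 0.10 (SE, adjusted p = 3.48e-05) at 24 h by edgeR's quasi-likelihood test, and the interaction was -0.81 ± 0.14 (SE, adjusted p = 0.0335). With the GC correction the interaction was -0.42 (adjusted p = 0.121), and *Pclaf* stayed lasting. *Pclaf* overlaps *Trip4* on the other strand.

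The direction changed between the times for *Ddias*, named for its role against apoptosis after DNA damage, and *Tex15*, known from recombination in germ cells. *Ddias* (chr7:92857525-92874247, minus strand) stood at 13.1, 24.9, 13.3 and 9.44 CPM at 0 Gy and 19.8, 39.6, 21.5 and 25.7 CPM at 2 Gy at 6 h. At 24 h it stood at 27.7, 46.0, 13.8 and 19.7 CPM at 0 Gy and 18.8, 24.4, 8.14 and 16.3 CPM at 2 Gy. Every pair was higher at 6 h and lower at 24 h. The log2 fold change was 0.84 ± 0.14 (SE, adjusted p = 0.0347) at 6 h and -0.63 ± 0.14 (SE, adjusted p = 0.0191) at 24 h by edgeR's quasi-likelihood test. The interaction was -1.47 ± 0.20 (SE, adjusted p = 0.0132), and -1.10 with the GC correction (adjusted p = 0.00609), where it was still called at both times in opposite directions.

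*Tex15* was low, at 2.61, 12.2, 1.85 and 1.17 CPM at 0 Gy and 5.33, 20.3, 3.30 and 2.73 CPM at 2 Gy at 6 h. At 24 h it was at 5.86, 26.6, 1.20 and 3.03 CPM at 0 Gy and 3.31, 17.9, 0.791 and 1.38 CPM at 2 Gy. Its log2 ratios were 1.01, 0.73, 0.81 and 1.17 at 6 h and -0.81, -0.56, -0.55 and -1.09 at 24 h. The ratios hence had 1 sign at each time although replicate 2 had a level several times that of the others. The interaction was -1.66 ± 0.20 (SE, adjusted p = 0.0106) by edgeR's quasi-likelihood test and -1.10 with the GC correction (adjusted p = 0.0384), where the 24 h fall was not called.

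A further 5 genes were called at 6 h without a call at 24 h or in the interaction. *Tnfrsf10b*, which encodes a death receptor, *Zfp365*, *Scn3b* and *Ddit4l* were higher, with log2 fold changes at 6 h from 0.56 to 0.63, and *Zfp365* was lasting with the GC correction. *Ung*, which encodes the uracil-DNA glycosylase of base excision repair, was lower, at 2.90, 3.01, 2.39 and 3.75 CPM at 0 Gy and 1.59, 1.16, 1.59 and 1.40 CPM at 2 Gy. *Ung* rested on 23 to 202 counts a library. Its log2 fold change was -1.05 ± 0.19 (SE, adjusted p = 0.0492) at 6 h and -0.45 ± 0.16 (SE, adjusted p = 0.0822) at 24 h by edgeR's quasi-likelihood test.

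**Figure D3:**
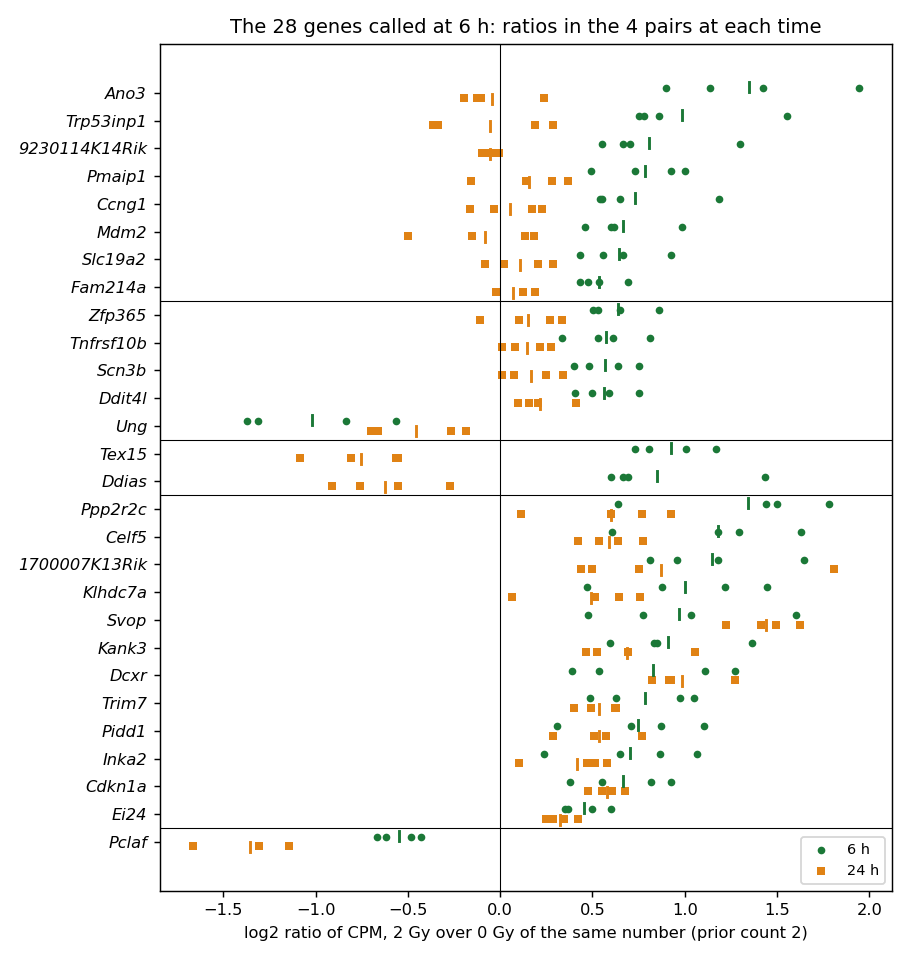
Log2 ratios of CPM, 2 Gy over 0 Gy of the same number, in the 4 pairs at 6 h (circles) and at 24 h (squares) for the 28 genes called at 6 h, with the mean of each 4 as a vertical bar. From top to bottom the blocks are early only genes, genes without a called interaction, genes of changed direction, lasting genes that rose, and *Pclaf*. In the top block, chosen by the interaction of these same pairs, the circles and squares of a gene do not overlap.

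The list of 38 p53 targets, which was assembled with earlier results of these data known, held early only, lasting and late only genes. Of its members, 11 were higher at 6 h and 13 were higher at 24 h, with 1 lower at 24 h. The shares of all tested genes were 0.154%, 7.07% and 6.1%. After the GC correction the counts were 17 higher at 6 h and 11 higher at 24 h, with 1 lower at 24 h. The shares of all tested genes were then 0.492%, 3.15% and 2.93%. Which time had more calls in the list depended on the correction. The median log2 fold change of the list was 0.38 at 6 h and 0.16 at 24 h, where the median of all tested genes was 0.00 and 0.01. The interaction was called lower for 8 members and higher for 1, and with the GC correction lower for 2 and higher for 0. The shares of all tested genes were 3.23% and 3.55%, and 0.735% and 0.895% with the correction. Besides the genes above, the interaction was lower for *Eda2r*, a receptor of the TNF family (-0.79), and *Polk*, a translesion polymerase gene (-0.85), neither of which was called in the interaction with the correction.

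Other p53 targets were called at 24 h and not at 6 h. *Bax*, the pore-forming effector of apoptosis, was the only late only member of the list, with log2 ratios of 0.21, -0.27, 0.46 and -0.72 at 6 h and 0.94, 1.05, 0.92 and 0.42 at 24 h. Its interaction was 0.91 ± 0.23 (SE, adjusted p = 0.0408) by edgeR's quasi-likelihood test and 0.42 with the GC correction (adjusted p = 0.0991), and the ratio of replicate 3 at 6 h lay above that of replicate 4 at 24 h. *Phlda3*, an inhibitor of Akt signalling, *Sesn2*, *Btg2*, *Gdf15* and *Bbc3*, which encodes the pro-apoptotic protein Puma, were called higher at 24 h with log2 fold changes of 0.77, 0.55, 0.61, 0.69 and 0.99. Their 6 h values were 0.33, 0.55, 0.32, 0.14 and 0.10, and none had a called interaction, so a difference between the times is not shown for them. With the GC correction *Sesn2* was called at 6 h and not at 24 h (adjusted p = 0.00369 and 0.0900), *Phlda3* was called at both times (0.0133 and 0.0116) and *Gdf15* at neither (0.136 and 0.0705), while *Btg2* and *Bbc3* stayed called at 24 h alone.

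The late only class held 431 genes that fell and 524 that rose. Genes of 7 cell cycle lists made up 74 of those that fell and 0 of those that rose. The 7 cell cycle lists together held 195 tested genes, of which 144 were lower at 24 h and 75 had a lower response at 24 h than at 6 h. Of all tested genes 6.1% were lower at 24 h and 3.23% had a lower response at 24 h than at 6 h, or 0.735% with the GC correction. These shares also apply to the counts of the single cell cycle lists below. Their median log2 fold change was -0.18 at 6 h and -0.71 at 24 h. At 6 h 173 of the 195 values were negative although only *Ung* was called, so a late only member may have had a small difference at 6 h. After the GC correction 12 of the 195 were called lower at 6 h and 2 higher, against 0.119% and 0.492% of all tested genes. Among the 74 late only members, *Bub1b* and *Cenpf*, genes of the spindle checkpoint and the kinetochore, were 2 of the 12 and became lasting. In the corrected fit 45 of the 195 had a lower response at 24 h, and 42 of the 74 late only cell cycle genes stayed late only. Of the 357 late only genes that fell and stood in none of the 7 lists, 33 stayed late only under the correction, and of the 524 that rose, 96 did.

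Most cyclins and their regulators fell at 24 h. *Ccna2*, the cyclin of S phase and G2 (chr3:36564865-36572150, minus strand), had the smallest adjusted p of the late only class. The 0 Gy libraries held 34.3, 44.02, 48.5 and 33.7 CPM at 6 h and 40.1, 42.6, 34.3 and 35.4 CPM at 24 h. The 2 Gy libraries held 31.0, 42.1, 35.8 and 33.02 CPM at 6 h and 15.7, 16.9, 11.5 and 15.9 CPM at 24 h. At 24 h all 4 irradiated libraries lay below all controls, and at 6 h the doses overlapped. The log2 fold change was -0.17 ± 0.10 (SE, adjusted p = 0.743) at 6 h and -1.35 ± 0.10 (SE, adjusted p = 3.48e-05) at 24 h by edgeR's quasi-likelihood test, and the interaction was -1.18 ± 0.14 (SE, adjusted p = 0.0106) and -1.02 with the GC correction (adjusted p = 0.00609). *Ccna2* overlaps *Exosc9* on the other strand.

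*Ccne2*, the cyclin of the G1 to S transition, had log2 ratios of -0.37, 0.01, -0.37 and 0.00 at 6 h and -1.45, -1.86, -1.41 and -1.32 at 24 h. Its interaction was -1.35, or -0.85 and still called with the GC correction. *Ccne2* overlaps *Ints8* on the other strand. The transcription factor genes *E2f7*, *E2f8* and *Foxm1* had interactions of -0.88, -1.17 and -0.78, and *Ccnb1*, the mitotic cyclin, one of -0.71. The first 3 were still called with the correction, and *Ccnb1* was not (-0.44, adjusted p = 0.0656). In the list of cyclins, CDKs and E2F factors 12 of 20 genes were lower at 24 h, 8 had a lower response at 24 h than at 6 h, and 7 did with the GC correction.

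Replication genes followed. *Rrm2*, the small subunit of ribonucleotide reductase, stood at 56.1, 111, 70.3 and 46.8 CPM at 0 Gy and 28.2, 51.5, 27.5 and 25.7 CPM at 2 Gy at 24 h. At 6 h it stood at 83.8, 144, 96.3 and 63.6 CPM and 84.4, 132, 81.8 and 61.5 CPM. Replicate 2 was highest in each group, and its 2 Gy library at 24 h lay above the 0 Gy library of replicate 4. The log2 ratios were -0.99, -1.11, -1.35 and -0.86 at 24 h and 0.01, -0.13, -0.24 and -0.05 at 6 h. The interaction was -0.98 ± 0.13 (SE, adjusted p = 0.0132) by edgeR's quasi-likelihood test and -0.91 with the GC correction (adjusted p = 0.00609). Among the genes of origin licensing and the fork, 27 of 34 were lower at 24 h and 8 had a called interaction, including the helicase subunit gene *Mcm4* (-0.67, or -0.44 with the correction), *Mcm10* (-0.95), the loader gene *Cdc6* (-0.93) and *Pole2* (-1.05). For this list 5 interactions were called with the GC correction. In the S phase list the counts were 36 of 43 at 24 h, 14 in the interaction and 7 with the correction.

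Genes of homologous recombination and the Fanconi pathway, which repair double strand breaks and crosslinks in S phase, were lower at 24 h in 20 of 30 cases and higher in 1. The interaction was called lower for 12 of them and for 6 with the GC correction. *Gen1*, which encodes a resolvase of recombination junctions, led them with log2 ratios of -0.20, -0.03, -0.09 and 0.11 at 6 h and -1.28, -1.43, -1.73 and -1.24 at 24 h. *Brca1*, the helicase gene *Blm*, the nuclease gene *Exo1* and *Fancd2* had interactions of -0.96, -1.22, -1.21 and -1.12.

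Of the 7 lists the mitotic kinesins and the kinetochore genes had the lowest medians at 24 h. The kinetochore and spindle checkpoint list had a median log2 fold change of -0.17 at 6 h and -0.92 at 24 h. In it 26 of 34 genes were lower at 24 h, 16 had a called interaction and 10 had one with the GC correction. The checkpoint kinase genes *Bub1* and *Ttk* had interactions of -1.35 and -1.14, and the kinetochore genes *Ndc80* and *Knl1* of -1.03 and -1.27, the last -0.67 with the correction. Of 12 mitotic kinesins 11 were lower at 24 h and 8 had a called interaction, 4 with the correction. *Kif11*, the motor that separates spindle poles, had an interaction of -1.13, or -0.73 with the correction. In the G2/M list 43 of 54 genes were lower and 3 higher at 24 h, with 26 called interactions and 18 with the correction.

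*Mki67*, the proliferation marker, stood at 111, 127, 58.6 and 130 CPM at 0 Gy and 31.6, 38.4, 20.9 and 50.01 CPM at 2 Gy at 24 h. At 6 h the values were 88.2, 104, 124 and 52.2 CPM and 66.9, 94.5, 88.1 and 85.3 CPM. All 24 h pairs were lower, and at 6 h replicate 4 was higher while the other 3 were lower. *Top2a*, the topoisomerase that untangles sister chromatids, had log2 ratios of -0.11, -0.20, -0.36 and 0.38 at 6 h and -1.30, -1.37, -1.39 and -0.95 at 24 h, with replicate 4 again the only pair higher at 6 h. The interactions of *Mki67* and *Top2a* were -1.51 and -1.18, or -1.23 and -0.73 and still called with the correction. *Esco2*, the acetyltransferase that fixes cohesion in S phase, had the lowest 24 h log2 fold change of the named genes, -2.05 ± 0.22 (SE, adjusted p = 2.58e-04) by edgeR's quasi-likelihood test. It rested on 14.6, 20.8, 9.56 and 11.97 CPM at 0 Gy and 4.41, 3.37, 1.53 and 4.63 CPM at 2 Gy. *Nusap1*, a spindle protein gene that overlaps *Oip5* on the other strand, and the mitotic kinase gene *Pbk* had interactions of -1.16 and -1.04.

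**Figure D4:**
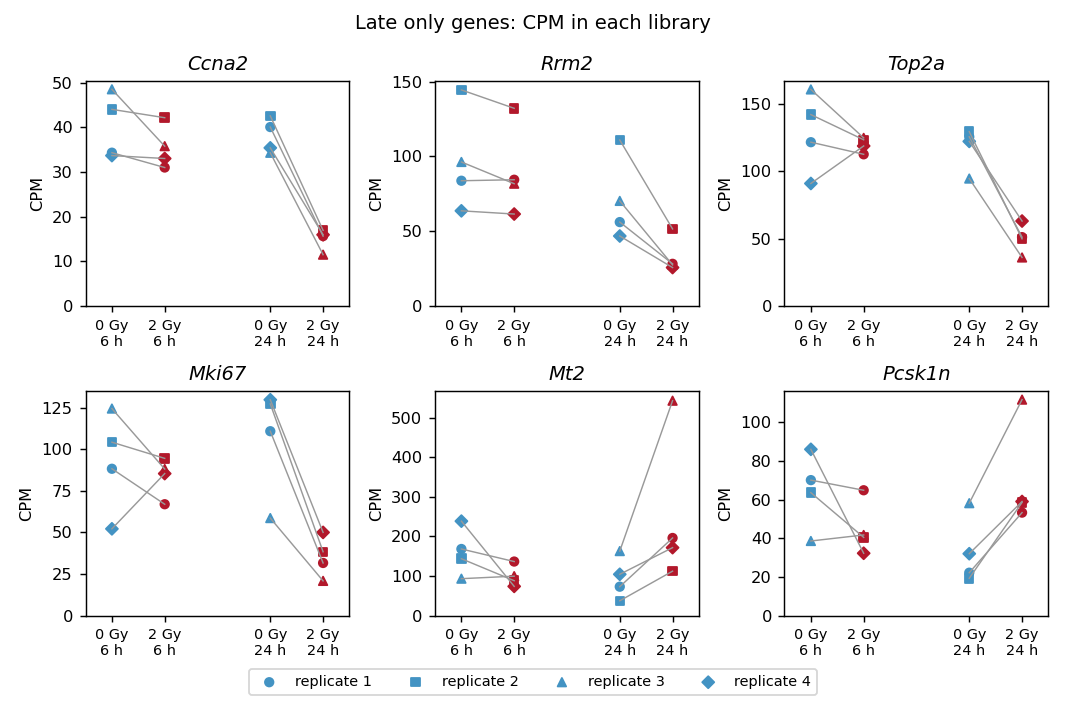
CPM in each library for 4 late only genes that fell (*Ccna2*, *Rrm2*, *Top2a*, *Mki67*) and 2 that rose (*Mt2*, *Pcsk1n*), with grey lines joining the 0 Gy and 2 Gy libraries of 1 number at 1 time. At 24 h every line of the first 4 genes falls and every line of the other 2 rises, while at 6 h the lines of *Ccna2* all fall slightly and those of the other 5 genes differ in direction.

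Bulk counts cannot tell fewer cycling cells from less RNA of these genes in each cell. A list of 66 genes that the study chose as lower in the 24 h libraries was all lower at 24 h here, with 61 called interactions, or 39 with the GC correction, and since it was chosen on these samples it is no independent evidence of direction. *Ckap2*, a spindle gene and a p53 target in mouse cells, is a member of the G2/M list with a log2 fold change of 0.48 at 6 h and -0.30 at 24 h, with neither called. Its interaction was -0.78 ± 0.14 (SE, adjusted p = 0.0335) by edgeR's quasi-likelihood test. After the GC correction it was early only, with 0.37 at 6 h (adjusted p = 0.0151), -0.09 at 24 h and an interaction of -0.47 (adjusted p = 0.0384). *Nanos1*, a translational repressor gene outside the lists, was at 0.47 at 6 h and -0.63 at 24 h, with an interaction of -1.08 under the GC correction (adjusted p = 0.00609).

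Since many late only genes fell together, the 250 bases before their starts were searched on both strands for letters known from cell cycle promoters. The letters TTTGAA, found in the cell cycle homology region, with CCAAT in the same window occurred in 19.3% of the 57 late only cell cycle genes with a promoter entry and in 4.89% of all 12056 tested genes with one. For CCAAT alone the shares were 64.9% and 39.9%, and for the E2F-type letters TTTGGCGC or TTTCCCGC they were 14.0% and 2.66%. All 159 members of the 7 lists with an entry, whatever their class, had shares of 19.5%, 64.8% and 14.5%. Among the 271 late only genes with an entry that fell and stood in none of the 7 lists, the shares were 9.96% for TTTGAA with CCAAT, 43.9% for CCAAT and 4.80% for the E2F-type letters. The windows of 2 late only cell cycle genes of each kind are shown, with all searched letters in capitals on either strand, because they hold the letters behind these shares (RefSeq, GRCm38.p6).
Top2a (chr11:99024190-99024439, minus strand): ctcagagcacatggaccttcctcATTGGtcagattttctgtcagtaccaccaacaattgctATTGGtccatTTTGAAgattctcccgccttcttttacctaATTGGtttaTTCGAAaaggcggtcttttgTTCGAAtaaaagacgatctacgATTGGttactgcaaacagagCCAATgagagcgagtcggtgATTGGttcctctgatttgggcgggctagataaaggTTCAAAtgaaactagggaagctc
Mki67 (chr7:135716380-135716629, minus strand): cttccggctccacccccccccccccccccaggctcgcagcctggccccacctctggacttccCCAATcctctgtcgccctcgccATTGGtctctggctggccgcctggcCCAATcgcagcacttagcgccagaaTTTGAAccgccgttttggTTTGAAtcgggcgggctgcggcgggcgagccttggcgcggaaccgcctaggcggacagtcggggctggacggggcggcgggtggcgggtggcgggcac
Kif15 (chr9:122950831-122951080, plus strand): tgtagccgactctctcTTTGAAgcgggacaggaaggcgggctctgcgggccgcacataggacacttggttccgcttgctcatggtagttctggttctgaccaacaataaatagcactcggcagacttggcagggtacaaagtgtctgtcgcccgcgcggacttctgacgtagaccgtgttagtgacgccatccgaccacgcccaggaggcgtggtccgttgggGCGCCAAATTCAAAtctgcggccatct
Hells (chr19:38930740-38930989, plus strand): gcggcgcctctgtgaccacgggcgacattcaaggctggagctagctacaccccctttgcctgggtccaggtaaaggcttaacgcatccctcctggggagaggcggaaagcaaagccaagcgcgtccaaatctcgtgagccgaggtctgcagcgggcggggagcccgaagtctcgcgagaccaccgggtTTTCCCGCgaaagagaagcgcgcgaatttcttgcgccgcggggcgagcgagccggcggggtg
The capitals mark TTTGAA, its variant TTCGAA, the letters CCAAT, or the E2F-type letters. *Kif15*, a spindle kinesin gene, holds TTTGAA on both strands beside the E2F-type letters, and *Hells* is a chromatin remodeller gene. The log2 ratios of *Hells* were -0.11, -0.29, -0.53 and 0.21 at 6 h and -1.31, -1.57, -1.21 and -0.81 at 24 h. The interactions of *Kif15* and *Hells* were -1.25 and -1.04, or -0.76 and -0.51 with the correction, where that of *Hells* was not called. A match of letters is neither a bound site nor a cause.

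The late only genes that rose were led by *Mt2*, a metallothionein gene that binds zinc and copper. It stood at 168, 144, 93.3 and 239 CPM at 0 Gy and 137, 88.2, 99.7 and 73.9 CPM at 2 Gy at 6 h. At 24 h it stood at 73.1, 37.5, 163 and 104 CPM and 196, 112, 543 and 172 CPM. All 24 h pairs were higher, and at 6 h 3 of 4 pairs were lower, replicate 4 most. *Mt2* overlaps *Gm45774* on the other strand. The interaction was 2.01 ± 0.32 (SE, adjusted p = 0.0226) by edgeR's quasi-likelihood test and 1.74 with the GC correction (adjusted p = 0.00956). *Mt1* and *Mt3*, named after their values were seen, were late only as well, with interactions of 1.02 and 1.21, or 0.71 and 0.72 with the correction.

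*Pcsk1n*, which encodes an inhibitor of a prohormone convertase, had log2 ratios of -0.11, -0.65, 0.11 and -1.41 at 6 h and 1.26, 1.59, 0.94 and 0.88 at 24 h. *Gadd45g*, a stress response gene, had log2 ratios of -0.09, -0.61, -0.05 and -0.78 at 6 h and 0.85, 0.53, 0.68 and 0.54 at 24 h, and its interaction with the GC correction was 0.48 (adjusted p = 0.0550). The other 7 by the naming rule were *Ccdc85b*, *Tnfsf12*, *Sdsl*, *Macrod1*, *P3h3*, *Wdr34* and *Lhfpl4*, with interactions from 0.76 to 1.54. *Tnfsf12* overlaps *Tnfsf13os* and *Macrod1* overlaps *Flrt1* on the other strand. Of the 10 leading genes that rose, *Mt2*, *Pcsk1n*, *Ccdc85b*, *Sdsl* and *Lhfpl4* stayed late only with the correction, whereas all 10 leading genes that fell did. The median log2 fold change of the 524 genes at 6 h was -0.22, with 522 values below 0, and their median GC content was 56.9%. The 431 genes that fell had a median GC content of 42.2%, and of the 357 outside the 7 lists 33 had a 6 h value below 0. The called interaction of the class favours 6 h values opposite in sign to those at 24 h. These counts thus restate the selection in part and show no response at 6 h. Of all 16866 tested genes 8346 had a 6 h value below 0. Of the 1250 called at 24 h without a called interaction, 666 did.

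The other lists of pathways held 0 to 5 called interactions each, where 3.55% of all tested genes were called higher and 3.23% lower, and with lists of 15 to 35 tested genes these counts are given as a description. The 35 tested astrocyte reactivity genes had 3 higher and 2 lower, with *H2-D1* and *H2-T23*, which encode class I histocompatibility proteins, at 0.95 and 0.87 and the adhesion receptor gene *Cd44* at -0.58. *Gfap* and *Serpina3n* were called higher at 24 h (0.37 and 0.44) without a called interaction. *Gfap* overlaps *Gm26668* and *H2-T23* overlaps *A930015D03Rik* on the other strand. After the same correction *H2-D1* and *H2-T23* were still called (0.72 and 0.60), *Cd44* was not (-0.35, adjusted p = 0.0868), and the 24 h difference of *Gfap* was not called either (0.25, adjusted p = 0.107). The interferon-stimulated gene *Ifi27* (0.76), the AP-1 gene *Jund* (1.43), the NF-kB subunit gene *Relb* (0.68) and *Sod1* (0.68) were each the only called interaction of their list. After the GC correction *Ifi27*, *Jund* and *Sod1* were still called, at 0.56, 0.77 and 0.63, and *Relb* was not, at 0.31 (adjusted p = 0.157). The immediate early and AP-1 list then held 1 interaction called higher and 1 called lower. The lists of senescence and SASP genes, collagens, glycolysis and the unfolded protein response had 1 called interaction each among 17 to 20 tested genes, that of cholesterol synthesis 2 higher and 1 lower of 22, and the circadian clock list had 0 of 20 by edgeR's quasi-likelihood test, with 4 at an unadjusted p under 0.05. None of the interactions called in the senescence, collagen, glycolysis, unfolded protein and cholesterol lists was called with the GC correction.

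The mitochondrially encoded genes moved in the direction of the low-GC genes. Of 13 genes 8 had a lower response at 24 h, against 3.23% of all tested genes. The list median was 0.50 at 6 h and -0.85 at 24 h. The list medians of the pairs were 0.27, 0.89, -0.11 and 1.02 at 6 h and -1.19, -1.38, 0.15 and -0.73 at 24 h, so that replicate 3 went the other way. The ratios of 2 of the 13 genes did not overlap between the times, which held for 21.3% of all tested genes. With 13 genes these shares are given as a description. *mt-Nd5*, a subunit of respiratory complex I, had log2 ratios of 0.19, 0.89, -0.11 and 1.62 at 6 h and -1.10, -1.38, -0.39 and -1.02 at 24 h. Replicate 3 had the value nearest 0 at both times, and *mt-Nd5* overlaps *mt-Nd6* on the other strand. With the GC correction 3 of the 13 were called lower, against 0.735% of all tested genes. Markers of microglia were called higher in the interaction for *Trem2* (0.75, or 0.66 with the GC correction) and *C1qa* (0.66, or 0.14 and not called with the correction) of 14. The same held of neurons for *Syp* (0.91, or 0.88) of 13, of the oligodendrocyte lineage for 2 of 10 (0 with the correction), and of astrocytes for 0 of 12 and of fibroblasts and vessels for 0 of 11, with 5 and 1 at an unadjusted p under 0.05 by edgeR's quasi-likelihood test. Of all tested genes 3.55% were called higher in the interaction, and 0.895% with the GC correction. With marker lists of 10 to 14 tested genes these counts are given as a description. The part of these markers in the results was not tested.

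**Figure D5:**
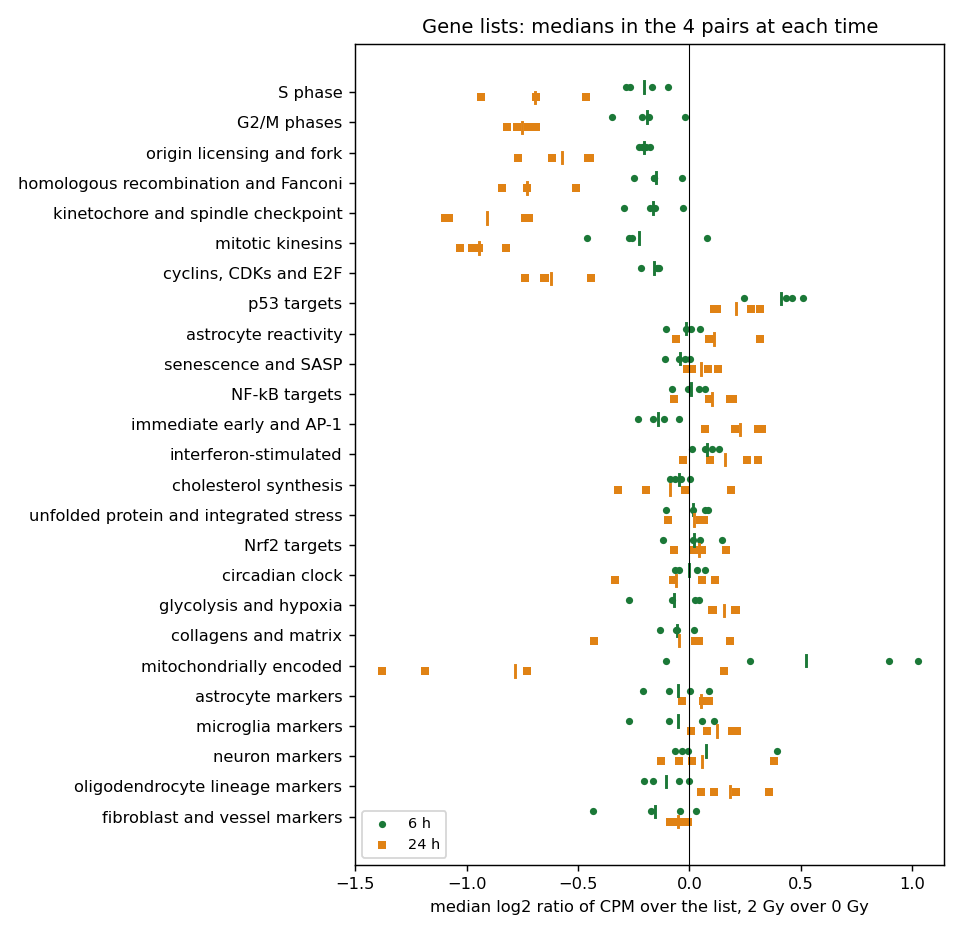
Median log2 ratio of CPM over the tested genes of each list in the 4 pairs at 6 h (circles) and at 24 h (squares), with the mean of each 4 as a vertical bar. In the 7 cell cycle lists at the top every 24 h median lies below every 6 h median of the same list, the p53 targets lie above 0 at both times, and the mitochondrially encoded genes spread most.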

How the data were processed

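Poly(A) RNA of primary mouse astrocytes was sequenced in 24 libraries, and the 16 libraries of 0 Gy and 2 Gy at 6 h and 24 h (4 each) were analysed here. The authors deposited raw counts per gene for each library, and the submitters' processing notes name the build mm10. The aligner, the counter and the use of strand are not given in the sources used here. The 8 libraries of 0.1 Gy entered only an alternative fit.

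Genes were kept by filterByExpr, counts were scaled by TMM, and edgeR 4.0.16 (R 4.3.3) fitted glmQLFit with dose at each time and 8 blocks, 1 for each n number at each time, which left 6 residual degrees of freedom. Contrasts were tested by glmQLFTest with Benjamini-Hochberg adjustment over the 16866 tested genes at 0.05. CPM used TMM library sizes, and log2 ratios of pairs used a prior count of 2. Standard errors were the log2 fold change divided by the square root of F. Deviations of equally numbered libraries from their group means correlated between 0.526 and 0.914 within a time, so the numbers pair libraries there. Across times 7 of 8 correlations lay between 0.254 and 0.818 and 1, of replicate 3 at 0 Gy, was 0.0863. The titles repeat the numbers at both times, but no label says that a number marks the same culture. Since also not every correlation was over 0.1, the numbers were not joined. These values do not show that the cultures differed, and the block shared by both times is given beside the results. Chi-square tests of the 24 pairs of libraries within a group found none within sampling noise. Whether the 4 numbers are separate animals at both times is not stated. The p-values of the main fit measure the spread of the differences between 2 Gy and 0 Gy among these pairs of libraries. An exact permutation test of 4 against 4 pair ratios cannot give a two-sided p below 0.0286.

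The GC correction fitted splines with 5 degrees of freedom of GC content and length, with gene models of GENCODE M21, where 48970 of 49315 listed genes had a GC content. Alternatives were other scaling, filters and thresholds, DESeq2 1.42.0, limma 3.58.1 with voom, other blocks, all 24 libraries and left-out replicates. The fits that left out a number together with the GC correction were added after seeing the data. Scripts were tested on simulated data.

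Named genes were the 10 of smallest adjusted p per direction of the interaction without overlap of pair ratios, the 10 of each class and direction, list members called in any contrast, genes the study names and genes overlapping a named gene on the other strand. Genes called at 6 h outside this rule (*Inka2*, *1700007K13Rik*, *Zfp365*, *Scn3b* and *Ddit4l*), *Mt1* and *Mt3* were chosen after their values were seen. The comparison, the gene lists and the members were chosen with earlier results of these data known.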

Additional observations from a re-analysis of the deposited data

Results flagged for a closer look

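In 27 of 204 groups of 4 libraries (48 named genes and 3 measures of the libraries, total counts, the share of *Gm42418* and the mitochondrial share, in each of 4 groups), 1 library stood further from the other 3 than Dixon's critical value at 95% allows, where chance singles out about 1 in 20 groups. The groups of a gene share their cultures and are not independent. In the libraries of replicate 2, which also had the low microglia marker sums, the following levels were the highest or lowest of their group. *Wdr34* stood at 13.44 CPM in 2 Gy 6 h. *Tex15* stood at 12.2 CPM in 0 Gy 6 h, 20.26 CPM in 2 Gy 6 h and 17.95 CPM in 2 Gy 24 h. *Ccne2* stood at 14.8 CPM in 2 Gy 6 h. *Rrm2* stood at 51.55 CPM in 2 Gy 24 h. *Ano3* stood at 26.63 CPM in 0 Gy 6 h. *Pmaip1* stood at 102.1 CPM in 0 Gy 6 h and 98.63 CPM in 0 Gy 24 h. *9230114K14Rik* stood at 20.37 CPM in 0 Gy 6 h. *Celf5* stood at 36.95 CPM in 0 Gy 6 h, 56.27 CPM in 2 Gy 6 h and 58.9 CPM in 2 Gy 24 h. *Svop* stood at 27.6 CPM in 0 Gy 24 h. *Ppp2r2c* stood at 11.99 CPM in 0 Gy 6 h, 18.72 CPM in 2 Gy 6 h, 18.17 CPM in 0 Gy 24 h and 27.57 CPM in 2 Gy 24 h. *Zfp365* stood at 94.35 CPM in 0 Gy 6 h and 133.8 CPM in 2 Gy 6 h. *Scn3b* stood at 46.63 CPM in 0 Gy 6 h and 65.07 CPM in 2 Gy 6 h.

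In the libraries of replicate 3 the following levels stood apart. *Pcsk1n* stood at 111.6 CPM in 2 Gy 24 h. *Gadd45g* stood at 177.9 CPM in 2 Gy 24 h. *Ccdc85b* stood at 65.84 CPM in 0 Gy 24 h and 102.8 CPM in 2 Gy 24 h. *Fam214a* stood at 18.71 CPM in 0 Gy 24 h. All 27 were levels of genes. Without the libraries of replicate 2 the interaction was called for 0 genes and without those of replicate 3 for 3951, against 1143 with all 16 libraries.

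The response to 2 Gy differed between 6 h and 24 h, by edgeR's test of the interaction itself, for 1143 genes. Among the named genes the log2 interaction was positive for *Mt2* (2.007), *Pcsk1n* (1.672), *Gadd45g* (1.025), *Ccdc85b* (1.54), *Tnfsf12* (0.9774), *Sdsl* (1.465), *Macrod1* (1.196), *P3h3* (0.7642), *Wdr34* (0.846) and *Lhfpl4* (1.019). It was negative for *Ccna2* (-1.181), *Tex15* (-1.657), *Ccne2* (-1.346), *Rrm2* (-0.9801), *Gen1* (-1.381), *Ddias* (-1.468), *Nusap1* (-1.163), *Top2a* (-1.178), *Ano3* (-1.384) and *Nanos1* (-1.098). It was also negative for *Pmaip1* (-0.6261), *Trp53inp1* (-1.038), *9230114K14Rik* (-0.8496), *Slc19a2* (-0.5333), *Ccng1* (-0.6801), *Fam214a* (-0.4688), *Mdm2* (-0.7471), *Pbk* (-1.045), *Esco2* (-2.051), *Mki67* (-1.508) and *Pclaf* (-0.8129).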

How the results depend on the processing

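Counts are given below in the order interaction, 6 h, 24 h, early only, late only and lasting, where the reported values were 1143, 28, 2220, 8, 955 and 13. DESeq2's size factors, unscaled library sizes, at least 10 counts in every library and limma voom kept each count within 1.5 times. Without a filter on low counts they were 2685, 176, 3226, 43, 2149 and 46, with DESeq2 2549, 85, 3014, 30, 2022 and 32, and with all 24 libraries 2759, 78, 3416, 29, 2165 and 32. At an adjusted p under 0.01 they were 0, 1, 245, 0, 0 and 0, and with a fold change of at least 1 on the log2 scale in either direction 203, 5, 153, 1, 67 and 0. With the GC and length correction they were 275, 103, 1027, 13, 228 and 34, of which 3 early only, 171 late only and 10 lasting genes were shared with the reported classes.

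Without the replicate block the counts were 0, 0, 69, 0, 0 and 0, with 827 interactions at an unadjusted p under 0.05, and with a replicate block shared by both times 0, 0, 177, 0, 0 and 0, with 2220. Leaving out a number or a pair gave 0 to 3951 interactions, 0 to 69 genes at 6 h, 117 to 4023 at 24 h, 0 to 29 early only, 0 to 2252 late only and 0 to 21 lasting genes. Without the 6 h pair of replicate 1, 2, 3 or 4 the interaction was called for 19, 0, 2631 and 121 genes, and without the 24 h pair for 0, 0, 2267 and 170. With the GC correction and without replicate 1 the counts were 0, 10, 196, 0, 0 and 1, without replicate 2 0, 24, 162, 0, 0 and 4, without replicate 3 1798, 271, 1651, 103, 1007 and 61 and without replicate 4 10, 6, 804, 0, 10 and 3. Except that the interaction of *Dcxr* was -0.42 without replicate 3 with the GC correction, no called value of a named gene changed sign. All 8 early only genes kept the sign of their interaction in every alternative, as did 422 of 431 late only genes that fell and 524 of 524 that rose with the GC correction. In the fits with the GC correction and a left-out number, 417 of 430 to 424 of 431 of those that fell and 521 to 524 of 524 of those that rose did. The cause of these changes was not tested. With 6 residual degrees of freedom and 4 pairs a time, a gene not called is not shown to lack a response.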
